A study of Drosophila melanogaster with 2 samples.

Results

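Peaks of the transcription factor Aristaless near the nuclear genes for oxidative phosphorylation were described in Drosophila melanogaster embryos, from chromatin immunoprecipitation followed by sequencing (ChIP-seq). The members were the 88 protein-coding genes, of 13968 on the 7 nuclear chromosome arms, whose symbols begin with ND-, Sdh, UQCR-, COX or ATPsyn. These prefixes stand for complexes I, II, III, IV and V of the mitochondrial inner membrane, with 40, 8, 9, 16 and 15 genes. The rule used names and no measured value. It takes in Sdhaf3, an assembly factor and not a subunit, and it leaves out subunits with older names such as blw and levy, which are given separately. Of the 88 symbols, 24 end in L for "like" or in this L and a digit. Such duplicates of respiratory genes in Drosophila are often known for testis-biased expression.

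The flies were a transgenic al-GFP strain with an insertion that targets al, so that Aristaless is made as a fusion to eGFP, and the fusion was precipitated with an antibody against GFP. Whole embryos of 0 to 24 h were used, with chromatin sheared to fragments of 200 to 800 bp. All the data are 1 group of 2 biological replicates with no contrast between conditions, and the sex was not collected. The sources used here do not say whether an untagged al is still present, and whole embryos mix all tissues. Libraries named as possible controls were not analysed here, so Aristaless binding and a general signal at promoters cannot be told apart.

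The oxidative phosphorylation system passes electrons from NADH and succinate to oxygen and uses the proton gradient this makes to synthesise ATP. Complex I takes electrons from NADH, complex II from succinate, complex III passes them to cytochrome c, complex IV to oxygen, and complex V is the ATP synthase. Apart from complex II, each complex joins subunits encoded in the nucleus with subunits encoded in mitochondrial DNA. Aristaless is a paired-class homeodomain protein known for patterning the tips of legs, antennae and wings, and proteins of its class are known to bind the core TAATTA.

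The sequences below lie under the own-promoter peaks with the strongest signals, and under 2 further peaks that hold a searched motif next to the summit. An own-promoter peak is one whose summit lies within 500 bp of a transcription start site (TSS) of the gene itself. Each run covers the bases within 50 bp of the summit that lie outside annotated UTRs, on the strand of the gene, from RefSeq's release 6 sequence, the assembly known as dm6. Capitals mark searched motifs, and a run wholly in lower case holds none of the 8 that were searched. The run for UQCR-14 is a DRE with 10 bases on each side, because its summit lies in the annotated 3' UTR of the overlapping gene CG32576. ND-B17 and ND-51 hold the core farther from the summit than the bases shown. The peak of ND-MWFE is described without its sequence.
ND-ASHI, complex I, chrX:6679316-6679416, minus strand: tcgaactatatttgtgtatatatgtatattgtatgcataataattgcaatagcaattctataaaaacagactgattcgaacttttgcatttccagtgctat
ND-24, complex I, chrX:17632180-17632216, plus strand, with the homeodomain core: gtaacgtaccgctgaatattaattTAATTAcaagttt
COX5A, complex IV, chr3R:11819512-11819547, plus strand: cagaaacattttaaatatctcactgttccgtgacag
ND-SGDH, complex I, chr3L:12138604-12138704, minus strand, with a nuclear respiratory gene element: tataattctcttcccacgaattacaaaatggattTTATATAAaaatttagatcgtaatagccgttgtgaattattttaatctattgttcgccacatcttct
ND-B17, complex I, chr2L:15751146-15751246, minus strand: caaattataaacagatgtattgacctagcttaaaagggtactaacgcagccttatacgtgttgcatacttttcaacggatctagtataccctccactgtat
ND-51, complex I, chr2L:6062809-6062909, minus strand: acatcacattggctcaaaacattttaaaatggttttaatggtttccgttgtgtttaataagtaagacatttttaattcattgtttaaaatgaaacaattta
ND-MNLL, complex I, chrX:7893849-7893949, minus strand, with the homeodomain core and a nuclear respiratory gene element: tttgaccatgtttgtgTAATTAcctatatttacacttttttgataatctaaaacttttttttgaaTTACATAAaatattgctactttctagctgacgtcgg
UQCR-14, complex III, chrX:16286216-16286243, plus strand, with the DRE: gagtgcgataTATCGATAggtgcagtgt

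Peaks stood at the promoters of 17 of the 88 members, or 19.3%, in the authors' thresholded list made from both replicates. Over all protein-coding genes the same rule called 18.7% in that list, so the share of the members was near the background. Within 2 kb of the gene or inside it, 28 members had a summit, or 31.8%, against 33.3% of all genes. The members are short, with a median length of 1097 bp against 2164.5 bp over all genes, so that the space within 2 kb of them is smaller. The remaining 60 members had no thresholded summit within 2 kb. Because the design holds no contrast, the shares are descriptions with no test.

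The share at the own TSS was 14.8% in each replicate's own thresholded list, with 13 members in replicate 1 and 13 in replicate 2 (SD 0 percentage points, n = 2). Over all genes these lists called 15.5% and 12.1%. Within 2 kb, 20 members (22.7%) were covered in replicate 1 and 23 (26.1%) in replicate 2, beside 28.1% and 22.2% of all genes. The members thus lay below the background in replicate 1 and above it in replicate 2 under both rules. At the own TSS 10 members were in both lists, 3 in replicate 1 alone and 3 in replicate 2 alone. All 16 were also among the 17 of the series' list, and ND-23 was the remaining one. Each replicate's 13 members thus shared 76.9% with the other's, where over all genes 70.3% of the replicate 1 genes and 90.1% of the replicate 2 genes were shared. The read depth behind the lists is unknown here, and the authors' signal has no stated scale, so it ranks peaks within a list.

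**Figure D1:**
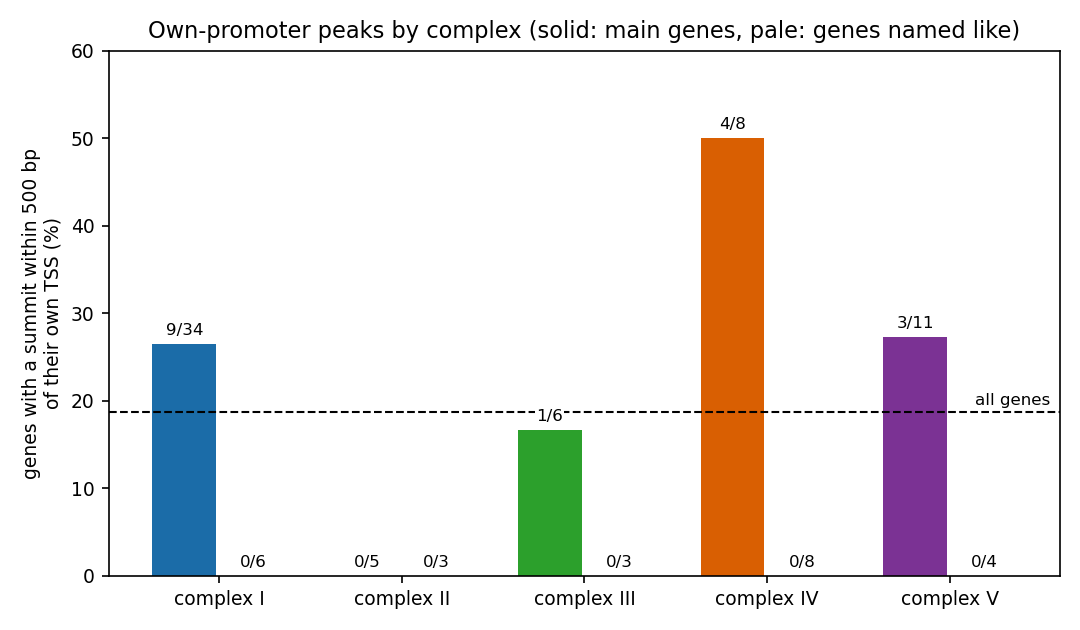
Genes with an own-promoter peak in the series' thresholded list, as a percentage of the genes of each complex (y axis), with solid bars for genes not named like, pale bars for those named like, and counts above the bars. The dashed line is the 18.7% of all protein-coding genes; complex IV reaches 4 of 8 main genes, complex II none of 5, and no bar of the genes named like rises above 0.

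Own-promoter peaks stood at 9 of the 40 complex I genes (22.5%), 4 of the 16 complex IV genes (25%) and 3 of the 15 complex V genes (20%), shares near the 18.7% of all genes. Complex II had 0 of 8 and complex III 1 of 9. None of the 24 genes named like had one, in the series' list or in either replicate's own list, where 17 of the other 64 members (26.6%) did in the series' list. Over all genes these lists called 18.7%, 15.5% and 12.1%, and the difference between genes named like and the others was not tested. ND-MNLL also ends in L, but there the letter belongs to the name of the subunit, and it was moved to the main genes after its value was seen. Counted by the ending of the symbol alone, 1 of 25 genes named like would carry a peak. Of the genes named like, COX5BL alone had a summit within 2 kb, and it stood at another gene's promoter.

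Complex I held the 3 strongest own-promoter peaks of the members. ND-ASHI, an accessory subunit of the membrane arm, gave 248 (replicate 1) and 143 (replicate 2) in signal at the peak X, 6679256 to 6679491, which ranked 184 of 3848 in the series' list with a signal of 387. ND-24, a core subunit with an iron-sulfur cluster, had 144 and 117 (X, 17632094 to 17632244, series signal 261). The accessory subunit gene ND-MWFE had 132 and 124 (2R, 13158401 to 13158560, series signal 257). These 3 stood apart from the rest in both replicates, since the next highest value, at COX5A, was 81.1 in replicate 1 and 70.0 in replicate 2.

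The other complex I genes carried weaker peaks. ND-SGDH, an accessory subunit of the membrane arm, had 68.9 in replicate 1 and 66.2 in replicate 2 (3L, 12138489 to 12138818). ND-B17, from the same arm, had 59.6 and 67.8 (2L, 15751031 to 15751360). ND-51, which binds FMN and accepts the electrons of NADH, had 64.8 and 60.7 (2L, 6062694 to 6063023). The ratios of replicate 1 to replicate 2 for these 3 genes, 1.04, 0.879 and 1.07, were below the median of 1.48 over all promoter peaks, and since the signal has no stated scale a ratio of 1 is no mark of equal binding. ND-42, an accessory subunit, had 59.5 and 55.4 (3R, 22027312 to 22027641). ND-MNLL had 44.1 and 42.5 (X, 7893734 to 7894063), and the core subunit gene ND-23 had 43.7 and 28.9 (3R, 15837027 to 15837356). ND-MNLL passed the threshold in replicate 2's own list alone, and ND-23 in neither, so that its peak rests on the data of both replicates together.

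Of the 7 nuclear genes for core subunits of complex I, 3 (42.9%) had own-promoter peaks, ND-24, ND-51 and ND-23. ND-75, ND-49, ND-30 and ND-20, which carry or border the iron-sulfur clusters and the quinone site, had none, even within 2 kb. Among the 27 remaining main genes of the complex 6 had one (22.2%), and of all genes 18.7% did. This grouping was chosen after the values were seen, its counts are small, and the difference was not tested. ND-49 lies on chromosome 4, where the series' list held 3 peaks in all.

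Complex IV had own-promoter peaks at 4 nuclear accessory subunits of cytochrome c oxidase. COX5A had 81.1 and 70.0 in replicates 1 and 2 (3R, 11819397 to 11819726), and COX6B had 61.4 and 56.2 (X, 19744263 to 19744592). COX8 had 61.2 and 39.1 (3L, 21539362 to 21539691), and COX7B had 29.8 and 48.0 (3L, 17425222 to 17425551). COX5A and COX6B were in both replicates' lists, COX8 in that of replicate 1 alone and COX7B in that of replicate 2 alone. For the pair that only 1 replicate's list held, the ratios of 1.57 and 0.622 lay on opposite sides of the median of all promoter peaks. COX4 and COX7A had no thresholded summit near them, and COX5B had its strongest entry in the unthresholded ranked list at a signal of 41.2 with a global irreproducible discovery rate (IDR) of 0.789, where the thresholded list admits at most 0.01.

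Complex V carried own-promoter peaks at 3 of the 8 main genes for its membrane part and peripheral stalk (37.5%), beside 18.7% of all genes. ATPsynE, a subunit of the membrane part, had 67.5 in replicate 1 and 46.4 in replicate 2 (3R, 14326820 to 14327149). ATPsynCF6, in the peripheral stalk, had 48.0 and 32.6 (3R, 23356030 to 23356359), and ATPsynB, also in the stalk, had 38.9 and 19.1 (3L, 9729856 to 9730185). Their ratios of replicate 1 to replicate 2 were 1.46, 1.47 and 2.03, and the last pair was absent from replicate 2's thresholded list. ATPsynB was the weakest own-promoter peak among the members, with a series signal of 56.4, and its own q was above 0.05. The 3 genes for the catalytic head and central stalk that the rule takes, ATPsynbeta, ATPsyngamma and ATPsyndelta, had no summit within 2 kb. ATPsynbeta lies on chromosome 4. This grouping was not among the planned ones, its counts are small, and the difference was not tested. The alpha subunit gene blw, which the rule leaves out, had an own-promoter peak with 153 in replicate 1 and 122 in replicate 2. ATPsynC, for the ring that turns in the membrane, had a ranked entry of 34.5 in signal that did not pass (global IDR 0.505).

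Complexes II and III were nearly without own-promoter peaks. UQCR-14, a small subunit of complex III, had 26.0 in replicate 1 and 36.1 in replicate 2 (X, 16286082 to 16286411), and passed in replicate 2's list alone. UQCR-11 had a ranked entry with a signal of 32.8 that did not pass (global IDR 0.378). None of the genes for complex II had a summit within 500 bp of its TSS. However, SdhA, SdhB, SdhC and SdhD, which encode its 4 subunits, each had a summit within 2 kb of the gene. These are 4 of the 8 complex II genes (50%), beside 33.3% of all genes within 2 kb, and the difference was not tested. SdhAL had a ranked entry of 30.9 in signal, also short of the threshold (global IDR 0.143). With 8 and 9 genes, a share of 18.7% would amount to few genes, and the counts of these complexes are too small to be set against it.

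**Figure D2:**
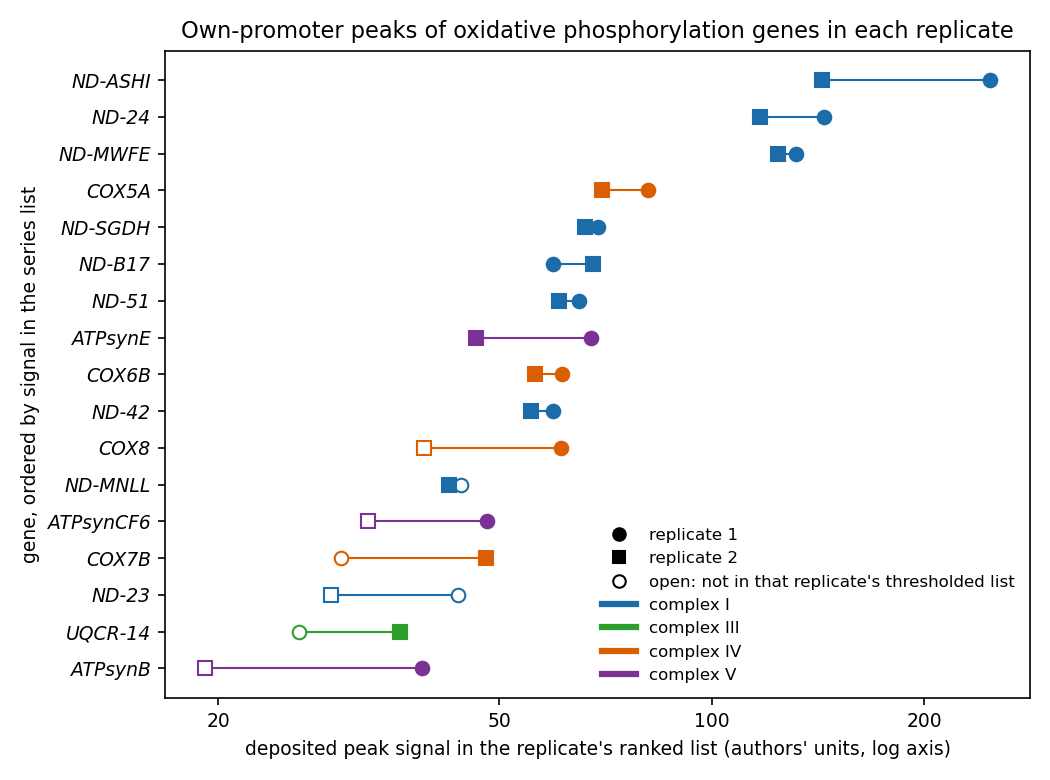
Deposited signal of each of the 17 own-promoter peaks in the ranked list of replicate 1 (circles) and replicate 2 (squares), on a log axis, with genes ordered by their signal in the series' list and coloured by complex. Open symbols are values that did not reach that replicate's thresholded list; replicate 1 was the higher in 14 of 17, and the genes seen in only 1 list are all in the lower part.

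Across the 17 own-promoter peaks the signal ranged from 26.0 to 248 in replicate 1, with a median of 61.2, and from 19.1 to 143 in replicate 2, with a median of 55.4. Replicate 1 was higher in 14 of the 17, and the median ratio of replicate 1 to replicate 2 was 1.09, with a range from 0.622 to 2.03. Over all promoter peaks of the series the median ratio was 1.48 and replicate 1 was higher in 86.7%. The median series signal of the members' peaks was 113, where that of all 1958 promoter peaks was 101 with quartiles of 68.6 and 172. The median of the members' peaks thus lay within the middle range of all promoter peaks, and 9 of the 17 had a global IDR of 0.0001 or less.

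The summits lay close to the TSS and mostly upstream of it. The distance ran from 22 to 248 bp, with a median of 90 bp, where the median over all promoter peaks to their nearest TSS was 120 bp. In 14 of the 17 the summit was upstream of the own TSS, and at ND-24, ATPsynE and ATPsynB it was 77, 38 and 22 bp downstream. By the annotation 9 summits lay in intergenic sequence, 5 in a 5' UTR, 2 in an intron, 1 in a 3' UTR and 0 in coding sequence, counting every overlapping protein-coding gene. The side of the TSS and the annotation class were not compared with those of all promoter peaks. No summit of a member lay between 248 and 825 bp from its TSS, so any window in that range gives the same 17 genes.

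Most of these peaks also had an opposite-strand neighbour's TSS near the summit. In 14 of the 17 peaks, or 82.4%, the TSS of another protein-coding gene on the opposite strand also lay within 500 bp of the summit. Counted by gene in the same way, this held for 1535 of the 2606 genes with an own-promoter peak (58.9%), and the difference was not tested. The rule took any opposite-strand TSS, whether or not the genes were divergent. ND-B17, UQCR-14 and ATPsynB were the 3 without such a neighbour. The own TSS was the nearest in 13 of the 17. At ND-42 the summit lay 3 bp from the TSS of Cchl, which encodes cytochrome c heme lyase, and 232 bp from that of ND-42. At ND-MWFE it was nearer to TppII, a peptidase gene, at ATPsynCF6 to Sec13, a coat protein and nuclear pore gene, and at COX6B to CG33932 and Rpp20. The ND-ASHI peak lay between ND-ASHI, at 248 bp, and the fumarase gene Fum1 of the tricarboxylic acid cycle, at 274 bp. COX6B and CG18809 have the same annotated start, as have ND-MNLL and CG45089, so these peaks cannot be given to 1 gene.

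Divergent neighbours were counted by a different rule, which considers no peak. It takes 11 of the 17 members with an own-promoter peak, where the rule around the summit took 14. Over all genes it takes 1562 of the 2606 with an own-promoter peak, where the rule around the summit took 1535. A gene on the opposite strand starting within 1 kb upstream was annotated for 37 of the 88 members (42%) and for 33.3% of all genes. It was there for 33 of the 64 main genes and for 4 of the 24 named like. Of the 37 members with such a neighbour 11 had an own-promoter peak (29.7%), and of the 51 without 6 did (11.8%). Over all genes these shares were 33.6% and 11.2%. The shares of the members lay near those of all genes with the same arrangement.

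**Figure D3:**
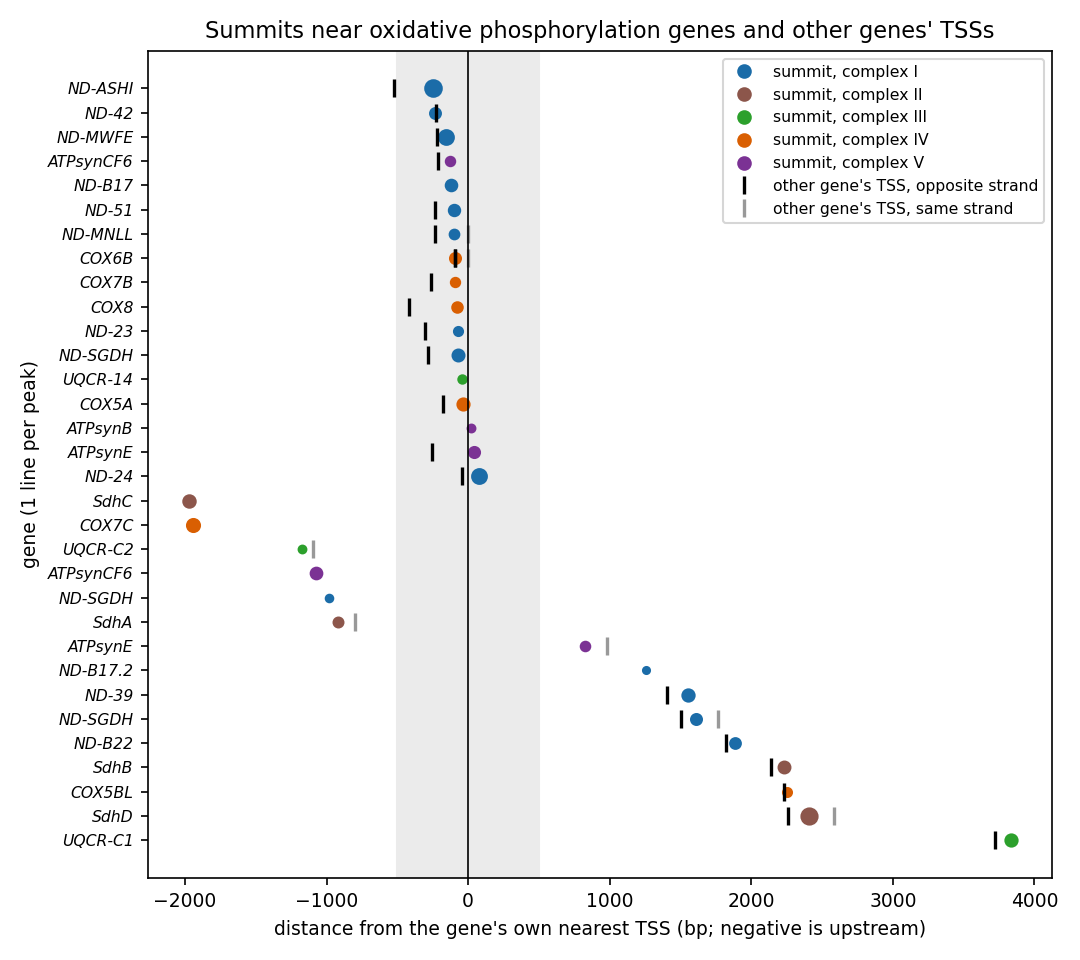
Position of the summit relative to the gene's own nearest TSS (bp, negative upstream) for the 32 series peaks within 2 kb of a member, 1 line per peak, with larger dots for stronger signals and ticks for TSSs of other genes within 500 bp of the summit. The 17 peaks within the grey 500 bp band all lie within 248 bp, and most have a black tick upstream for an opposite-strand neighbour. The peaks beyond the band sit beside other genes' TSSs in 10 of 15 cases. Over all series peaks on the arms, 1958 of 3822 had a summit within 500 bp of a TSS.

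A further 15 peaks lay within 2 kb of 14 members but away from their TSS, and 10 of them stood at the promoter of another gene. Of all 3822 series peaks on the 7 arms, 1958 had a summit within 500 bp of a protein-coding gene's TSS. The difference was not tested. The strongest of the 15 was near SdhD, a membrane anchor of complex II, with 196 in replicate 1 and 154 in replicate 2 (3R, 23758151 to 23758354). Its summit lay 2408 bp from the TSS of SdhD but 147 bp from that of PTPMT1, a mitochondrial phosphatase gene. The peak near SdhB, the iron-sulfur subunit, had 72.9 and 63.6 (2R, 6809695 to 6810024) and lay 94 bp from the TSS of CG15237. That near SdhA, the flavoprotein subunit, had 53.3 and 35.2 (2R, 19396726 to 19397055) and lay 119 bp from the TSS of cer. The fourth of the complex II genes, the membrane anchor gene SdhC, had 85.7 and 70.2 (3R, 11211654 to 11211983). That summit lay 1970 bp upstream of the TSS of SdhC and inside another gene's 3' UTR, with Tctp the nearest TSS at 1572 bp. All 4 of these peaks overlapped an entry in both replicates' lists. In replicate 1's own list, however, no summit lay within 2 kb of SdhC.

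Other members near a neighbour's promoter peak were UQCR-C1 (94.1 in replicate 1 and 58.4 in replicate 2, at Dph2), ND-39 (98.3 and 51.0, at ZnT77C) and ND-B22 (42.6 and 68.4, at CG31855). UQCR-C2 (19.1 and 33.4, at Rpn12) and COX5BL (25.3 and 58.9, at Trmt6) passed in replicate 2's list alone. COX7C had a peak 1942 bp upstream of its TSS, in an intron of another gene, with 114.8 and 57.5, in both lists. ND-B17.2 had the weakest, with 37.6 and 9.19, in another gene's coding sequence and in neither replicate's own list. ND-SGDH, ATPsynE and ATPsynCF6 had such distal peaks besides those at their TSS. Replicate 1 was higher in 12 of the 15, and 10 of the 15 were in both lists. For 3 of the 15, near UQCR-C2, ND-SGDH and ND-B17.2, the peak's own q was above 0.05.

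**Figure D4:**
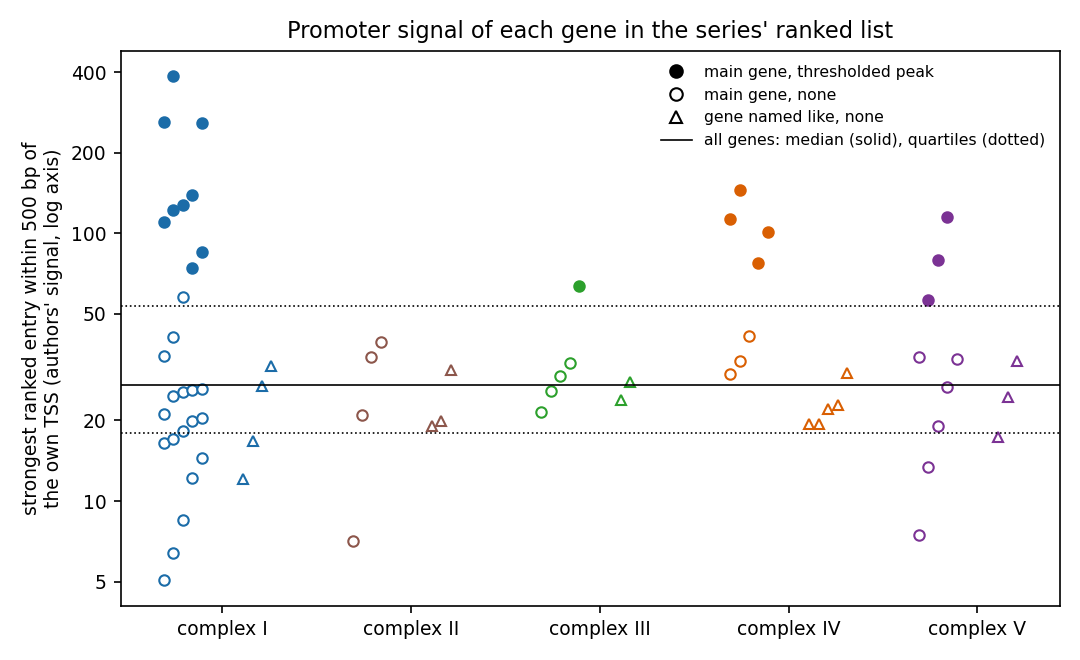
Strongest entry of the series' unthresholded ranked list within 500 bp of each gene's own TSS (authors' signal, log axis), by complex, with circles for main genes and triangles for genes named like; filled symbols have a thresholded peak. Lines give the median (27.1) and quartiles (17.9 and 53.4) over all genes that have an entry; the 19 members with none are not drawn, and no gene named like exceeds 33.3.

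Signal in the unthresholded ranked list was also read at the promoters of the members. Of the 88 members 69 (78.4%) had an entry of the series' ranked list within 500 bp of the TSS, against 76.7% of all genes, and their median signal was 26.9 against 27.1, genes with thresholded peaks included. Without those genes the median was 23.4 over 52 members and 22.2 over 8105 genes. The ranked list holds 128965 entries and most of them are weak, so an entry alone is no sign of binding. For the 17 genes named like that had an entry the median was 22.9 and the highest 33.3, at ATPsynbetaL. For the 52 main genes with an entry the median was 33.1 and the highest 387, at ND-ASHI. In each replicate's own ranked list the highest value of a gene named like was 28.1 and 21.8. The strongest entry that missed the series' threshold belonged to ND-B22, with 57.6 in signal and a global IDR of 0.327, and it did pass in the authors' conservative list. Among the complex I genes with no summit within 2 kb, ND-MLRQ had the strongest entry, with 40.9 and 0.0605.

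The DRE, the homeodomain core and the nuclear respiratory gene element were each found in a few of the 17 own-promoter peaks. A window of 100 bp on each side of the summit was searched on both strands for 8 motifs, none of which contains another. The core TAATTA was in 4 peaks (23.5%), at ND-24, ND-B17, ND-51 and ND-MNLL, where 18.9% of all promoter peaks held it. The DRE, TATCGATA, known as the site of DREF, was in 2 (11.8%), at ATPsynE and UQCR-14, beside 8.22%. The nuclear respiratory gene element, known from Drosophila genes for mitochondrial energy metabolism and searched as TTACATAA, TTACGTAA, TTATATAA and TTATGTAA, was in 3 (17.6%), at ND-SGDH, ND-42 and ND-MNLL, beside 4.80%. GAGAG was in 3 (17.6%), at COX6B, UQCR-14 and ATPsynB, beside 19.7%. Motif 1, GGTCACACT, the site of M1BP, was in 0 of the 17 and in 2.45% of all promoter peaks. The ETS core CTTCCGG, the E-box CACGTG and the NRF-1 core GCGCATGC were also in 0 of 17, beside 0.817%, 2.25% and 0.460%. With 17 peaks a share of 5.88% is 1 peak, and 7 of the 17, ND-ASHI, ND-MWFE and COX5A among them, held none of the 8.

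Other genes of mitochondrial energy metabolism, by lists that the symbol rule does not take, were covered in part. Of 9 subunits and carriers with other names, 5 had an own-promoter peak, in small counts beside the 18.7% of all genes. The gene for the alpha subunit of the ATP synthase, blw, had 153 in replicate 1 and 122 in replicate 2, and levy, a complex IV subunit gene, had 129 and 135. Cyt-c-d, a cytochrome c gene, had 122 and 78.9, cype 54.0 and 26.3, and ox 28.1 and 28.2. In both replicates blw and levy thus lay above COX5A and above the own-promoter peaks of the 3 complex V members. The peak of levy was nearer to the TSS of wmd, that of cype to Ncoa6, that of ox to Dgkepsilon and that of Cyt-c-d to CG31808.

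The share of all genes, 18.7%, also stands beside the following counts. For the tricarboxylic acid cycle together with pyruvate dehydrogenase, 7 of 17 genes (41.2%) had an own-promoter peak. They were led by Fum1, through the peak it shares with ND-ASHI. Idh3g (163 in replicate 1 and 128 in replicate 2), the pyruvate dehydrogenase gene Pdhb (130 and 79.0) and mAcon1 (87.7 and 57.6) came next. Of 12 matched assembly factors 4 (33.3%) did, CIA30, Ttc19, Cox17 and Coa7. The CIA30 peak, with 823 and 657, was by far the highest of these, but lay nearer to the TSS of CG7601. The peak of Ttc19 likewise lay nearer to Acn and that of Coa7 to Rab21. Of 13 regulators and genes for mitochondrial DNA 4 (30.8%) did, M1BP (69.6 and 76.9), Dref (76.5 and 48.0), mtSSB and PolG2, and srl, ewg, Ets97D and TFAM did not. The M1BP peak lay nearer to the TSS of CG8202, and that of PolG2 was as near to GatC. Of the 4 inner membrane carrier genes 0 did. These lists were put together with earlier results of these data known, and are read as values only. By the same rule 50 of 92 cytoplasmic ribosomal protein genes (54.3%), 26 of 73 mitochondrial ribosomal protein genes (35.6%) and 9 of 48 proteasome genes (18.75%) had an own-promoter peak. The last share is that of all genes, and the differences from the members were not tested.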

How the data were processed

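The authors deposited 8 peak lists, all on dm6 per the labels, for 2 biological replicates of 1 group, and 4 of them combine both replicates. No aligner, peak caller or version is named in the sources read. The deposited signal of a peak is the authors' enrichment value, with no stated scale. The deposited −log10 q served to mark peaks with q above 0.05. The deposited score is a scaled IDR of at most 1000. The −log10 global IDR of the deposited ranked lists gave the thresholds, and by the values the series' list reaches at most 0.01. No list holds read counts, so depth and counting error are unknown, and the spread covers 2 replicates whose separation is known only from the labels.

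Genes and TSSs of protein-coding transcripts came from Ensembl release 115, and sequences from RefSeq's release 6 genome. A replicate's value is that of the entry in its own ranked list that overlaps the series peak by at least 1 bp and has the nearest summit. Printed sequences leave out annotated UTRs, apart from that at UQCR-14. The counting was tested on simulated data. Members, lists, motifs and windows were chosen with earlier results of these data known.

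Named by rule were all members with an own-promoter peak, the 10 strongest with another peak within 2 kb, the strongest in each complex without any, the genes nearest to named peaks, and up to 4 genes in each further list. ND-B17.2, ox, and the genes named as having no peak (such as COX4, ND-75, ATPsynbeta and srl) were added after their values were seen. Of the listed names 6 matched no gene, and 2 are members. Python 3.11.15, numpy 2.4.6, pandas 2.3.3 and matplotlib 3.10.9 were used.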

Additional observations from a re-analysis of the deposited data

How the results depend on the processing

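The count of members with an own-promoter peak, 17, stayed between 13 and 18 under all settings but a strict threshold. It was 17 (19.3%) at 250 bp, for the outermost TSS and in the conservative list, beside 15.1%, 16.8% and 17.7% of all genes. It was also 17 for overlap in place of the summit and at a global IDR of 0.05, beside 19.8% and 21.7%. A window of 1 kb gave 18 (20.5% beside 21.6%), and the nearest TSS only gave 13 (14.8% beside 13.5%). With replicate 1 left out it was 13 (14.8% beside 12.1%), and without replicate 2 also 13 (14.8% beside 15.5%). At a global IDR of 0.0001 the count at the own TSS fell to 9, all main genes, beside 9.0% of all genes. The count within 2 kb fell there from 28 to 16 (18.2% beside 16.6%). It ranged from 20 to 23 with a replicate left out and reached 43 within 5 kb (48.9% beside 46.2%). The conservative list also gave 17, with ND-B22 in place of ATPsynB. By complex, the counts that moved were complex II, 1 at 1 kb (SdhA), complex III, 0 to 1 with a replicate left out (0 without replicate 2) and 0 at the strict IDR, complex IV, 2 at the strict IDR, and complex V, 1 to 3 with a replicate left out (1 without replicate 1) and 1 at the strict IDR. The median signal of the 17 peaks, 113, was 61.2 and 55.4 in the inputs of the ranked list, which hold 1 replicate's data each. Within 50 bp of the summit the DRE was in 1 peak, the homeodomain core in 2 and GAGAG in 1, and in the whole peak the DRE was in 4 and Motif 1 in 2. In the replicates' ranked lists 42 members had an entry in both, 10 in replicate 1 alone and 16 in replicate 2 alone, weak entries included. No paired analysis was possible because there is 1 group. The cause of these moves was not tested, apart from thresholds and windows that admit fewer or more peaks by construction.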

Other observations

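Motifs at the starts of the members, whether or not a peak was there, were also counted, within 100 bp of the outermost TSS. Motif 1 was found at 12 of the 88 members (13.6%) and at 5.28% of all genes, and the nuclear respiratory gene element at 9 (10.2%) and 2.31%. The DRE was at 6 members (6.82%) and 7.83% of all genes, and the homeodomain core at 7 (7.95%) and 9.94%. Members with Motif 1 at their start had an own-promoter peak in 4 of 12 cases, COX5A, COX7B, ND-B17 and ND-MWFE, although none of the 17 peaks held the motif within 100 bp of its summit. Over all genes 24.3% of those with Motif 1 and 18.3% of those without had an own-promoter peak. For the nuclear respiratory gene element the members numbered 2 of 9, ND-MNLL and ND-SGDH, and over all genes the shares were 18% with and 18.7% without. For the DRE they numbered 2 of 6, ND-SGDH and UQCR-14, with shares of 27.4% and 17.9% over all genes. For the homeodomain core they numbered 2 of 7, ND-51 and ND-ASHI, with shares of 21.1% and 18.4%. For GAGAG, at 17.0% of members and 22.5% of all genes, they numbered 5 of 15, with shares of 18.8% and 18.6%. These counts are descriptions, with no test.

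By chromosome arm, own-promoter peaks stood at 5 of 13 members on X, 2 of 16 on 2L, 1 of 17 on 2R, 4 of 20 on 3L, 5 of 20 on 3R and 0 of 2 on chromosome 4. Over all genes the shares in that order were 18.6%, 18.2%, 17.0%, 19.9%, 19.99% and 2.5%, so X lay above the share of its arm, with 5 genes, and 2R below it, with 1. These counts are small and were not tested.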
